A study of Homo sapiens with 9 samples.

Results

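HUCCT-1 cells, an established line of human cholangiocarcinoma, were transfected with siRNA combination 1, made of YAP siRNA 1 and TAZ siRNA 2, and set against the same cells with scrambled siRNA. The comparison covers 6 of the 9 arrays of the series, 3 with combination 1 and 3 with scrambled siRNA, and all 39334 probe sets. The other 3 arrays carry combination 2, made of YAP siRNA 2 and TAZ siRNA 3, and are used for the spread between arrays and for a direct comparison of the combinations. The members were chosen by the siRNA given and not by any measured value. All cells, the scrambled ones included, received siRNA at 40 nM with a lipid transfection reagent, and the methods state RNA harvest 24 h after transfection. The labels do not say whether the 3 arrays of a group came from separate cultures, so a p-value reflects the spread of these arrays alone, which may be technical. All arrays stem from 1 cell line.

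YAP, encoded by YAP1, and TAZ, encoded by WWTR1, are transcriptional co-activators that the kinases of the Hippo pathway hold back in the cytoplasm. In the nucleus they bind TEAD transcription factors and raise genes of growth, adhesion and matrix contact. In biliary epithelium and its tumours they are known for their part in cell fate, duct formation and proliferation.

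The arrays had medians of 5.81 on the log2 scale, and pairs of arrays had Pearson correlations from 0.983 to 0.992 across probe sets. The mean log2 signal of 9 measured biliary epithelium markers, such as KRT19 and EPCAM, lay between 9.49 and 9.58 on the combination 1 arrays and between 9.34 and 9.38 on the scrambled arrays. The markers of hepatocytes, fibroblasts, leukocytes and endothelium, of which none passed the test, had means between 5.17 and 5.53 on the combination 1 arrays and between 5.10 and 5.48 on the scrambled arrays. The median log2 fold change over all probe sets was 0.018.

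Combination 1 changed 578 of 39334 probe sets at an adjusted p under 0.05 by limma, which is a background of 1.47% of all probe sets, with 267 higher (0.679%) and 311 lower (0.791%). Of these, 94 higher and 70 lower probe sets belong to 3 lists set aside here, namely known YAP/TAZ targets, the interferon response and the cell cycle. The remaining 173 higher and 241 lower probe sets are the subject here, of which 132 higher and 149 lower are protein-coding genes, YAP1 and WWTR1 included. Each of these 414 had no overlap between the 3 combination 1 arrays and the 3 scrambled arrays, which held for 25.7% of all probe sets. With 3 arrays a group a call nearly requires this, so it is no further support. The changes were moderate, with a median size of 0.46 on the log2 scale among the higher and 0.47 among the lower, and only 8 higher and 6 lower probe sets moved by 1 or more on that scale. The count outside the 3 lists depended on single arrays. Without combination 1 array 1, 2 or 3 it was 138, 167 and 141, without scrambled array 1 or 2 it was 118 and 128, and without combination 2 array 1 it was 267.

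The siRNA targets were lower on every combination 1 array. YAP1 had log2 signals of 6.84, 6.85 and 6.95 with combination 1, against 9.15, 9.06 and 9.08 with scrambled siRNA. This is a log2 fold change of -2.22 (SE 0.072, adjusted p = 1.77e-05). WWTR1 had 6.97, 7.06 and 7.02 with combination 1, against 8.41, 8.30 and 8.38 with scrambled siRNA (log2 fold change -1.34, SE 0.053, adjusted p = 2.86e-05). For both genes the difference was larger than the spread within either group.

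**Figure D1:**
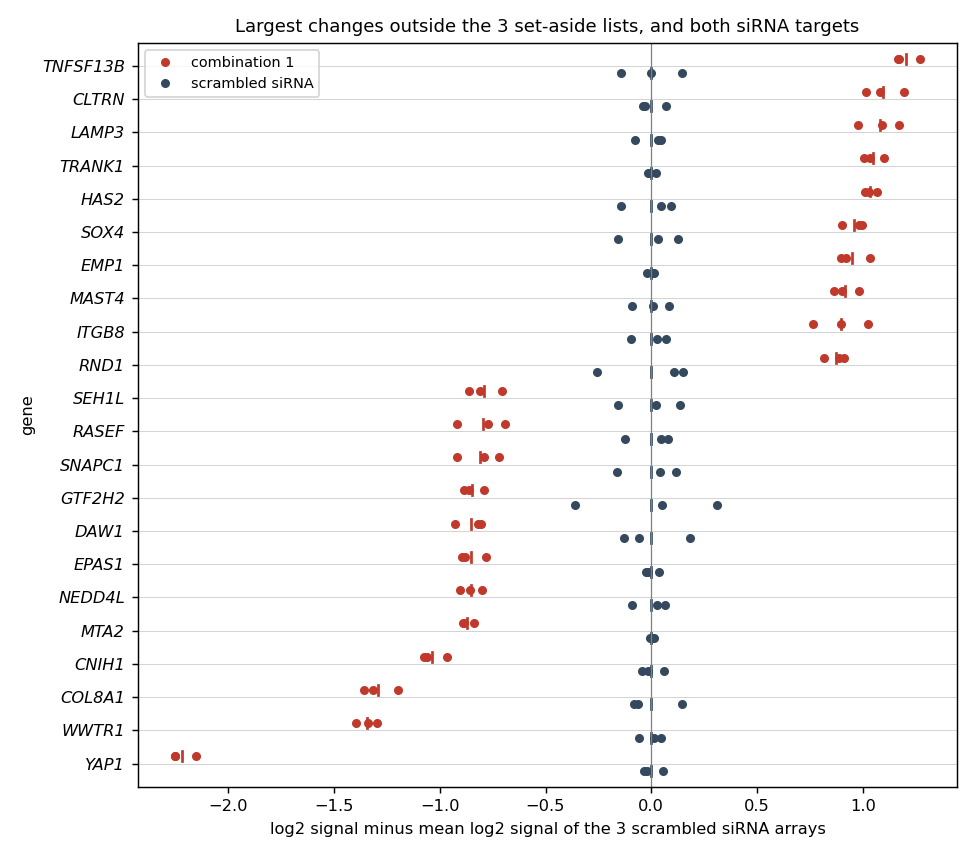
Log2 signal of each array minus the mean of the 3 scrambled arrays (horizontal axis) for the 10 largest increases and 10 largest decreases among protein-coding genes outside the 3 set-aside lists, with the siRNA targets WWTR1 and YAP1 at the bottom. Red points are combination 1 arrays and dark points scrambled arrays, and short lines are group means. Genes other than the siRNA targets were drawn only if their groups did not overlap, so their separation is part of the choice.

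The largest increases outside the set-aside lists joined immune, matrix and epithelial genes. TNFSF13B, which encodes the B cell survival cytokine BAFF, had log2 signals of 6.64, 6.74 and 6.64 with combination 1, against 5.47, 5.62 and 5.33 with scrambled siRNA (log2 fold change 1.20, SE 0.098, adjusted p = 0.00074). LAMP3, a lysosomal membrane protein, had 8.13, 8.05 and 7.93 with combination 1, against 6.88, 7.005 and 6.99 with scrambled siRNA (log2 fold change 1.08, SE 0.077, adjusted p = 0.000384). Both genes are known to respond to interferon although they are not on the set-aside interferon list, of which 93 of 160 measured members were higher with combination 1. CLTRN, which encodes collectrin, a partner of amino acid transporters, had 8.13, 8.06 and 8.24 with combination 1, against 7.02, 7.01 and 7.12 with scrambled siRNA (log2 fold change 1.10, SE 0.074, adjusted p = 0.000275). TRANK1, which encodes a protein with tetratricopeptide and ankyrin repeats, had 6.45, 6.48 and 6.55 with combination 1, against 5.43, 5.44 and 5.47 with scrambled siRNA (log2 fold change 1.05, SE 0.066, adjusted p = 0.000231). HAS2, a hyaluronan synthase of the plasma membrane, had 7.19, 7.14 and 7.15 with combination 1, against 6.17, 6.22 and 5.98 with scrambled siRNA (log2 fold change 1.04, SE 0.092, adjusted p = 0.00129). The lowest combination 1 array of HAS2 was clearly above the highest scrambled array.

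SOX4, a transcription factor of progenitor cells, had log2 signals of 9.87, 9.77 and 9.86 with combination 1, against 8.71, 8.90 and 8.996 with scrambled siRNA (log2 fold change 0.96, SE 0.078, adjusted p = 0.00074). EMP1, an epithelial membrane protein of the claudin-like family, had 11.10, 10.98 and 10.96 with combination 1, against 10.08, 10.07 and 10.04 with scrambled siRNA (log2 fold change 0.95, SE 0.056, adjusted p = 0.000195). The spread between arrays of EMP1 was small in both groups. The set was completed by MAST4, a microtubule-associated kinase (0.92), ITGB8, the integrin subunit known to activate latent TGF-beta (0.90), and RND1, a small GTPase (0.87). All 10 genes passed in every alternative that was run. These used other variance models or sets of probe sets, a replicate block, left out 1 array, or normalized again values that were already equalised. Not included, here and for the other genes, is the alternative that asked for a change of 1 or more on the log2 scale.

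Among the decreases, COL8A1, a collagen of basement membranes, changed most. It had log2 signals of 6.995, 6.88 and 6.83 with combination 1, against 8.34, 8.11 and 8.13 with scrambled siRNA (log2 fold change -1.29, SE 0.097, adjusted p = 0.000477). CNIH1, a cargo receptor for export from the endoplasmic reticulum, had 8.45, 8.46 and 8.55 with combination 1, against 9.58, 9.48 and 9.504 with scrambled siRNA (log2 fold change -1.04, SE 0.10, adjusted p = 0.00214). MTA2, a subunit of the NuRD chromatin remodelling complex, had 8.93, 8.92 and 8.97 with combination 1, against 9.81, 9.82 and 9.80 with scrambled siRNA (log2 fold change -0.87, SE 0.065, adjusted p = 0.000473). The scrambled arrays of MTA2 lay within a very narrow range, and the combination 1 arrays did as well. NEDD4L, a ubiquitin ligase known for its control of the epithelial sodium channel, had 8.90, 8.95 and 9.0 with combination 1, against 9.87, 9.83 and 9.71 with scrambled siRNA (log2 fold change -0.85, SE 0.062, adjusted p = 0.000421). EPAS1, which encodes the hypoxia factor HIF-2alpha, had 7.76, 7.66 and 7.65 with combination 1, against 8.52, 8.53 and 8.58 with scrambled siRNA (log2 fold change -0.85, SE 0.055, adjusted p = 0.000238).

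The remaining large decreases concerned genes of varied function. They were DAW1, an assembly factor of ciliary dynein (-0.85), RASEF, a Rab-like GTPase with EF-hand motifs (-0.79), SEH1L, a nuclear pore component (-0.79), SNAPC1, part of the complex that starts snRNA transcription (-0.81), and GTF2H2, a subunit of TFIIH (-0.85). GTF2H2 lies in a duplicated region with near-identical copies, so its signal cannot be assigned to 1 copy. The scrambled arrays of GTF2H2 spread from 6.21 to 6.88, a wider range than for the other 4 genes of this group. COL8A1, CNIH1, MTA2, NEDD4L, EPAS1, DAW1, RASEF and SEH1L passed in every alternative, and SNAPC1 and GTF2H2 lost the call in some of them, with an adjusted p of up to 0.155 for SNAPC1.

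To describe the change by function, 47 pathway lists with 3224 measured genes were used, from which the members of the set-aside lists were removed. Of these genes, 59 were higher and 50 lower. This is 3.38%, against 1.47% of all probe sets and 1.58% of protein-coding genes outside the set-aside lists. The lists were written with earlier results of these data known, so an excess of calls in them carries no weight. Of the 47 lists, 33 held at least 1 call and 14 held none. Calls relative to size were most frequent in junctions and epithelial adhesion, with 9 higher and 1 lower of 77, in matrix proteases and inhibitors, with 6 higher of 59, in the TGF-beta and BMP pathway, with 2 higher and 3 lower of 50, and in keratins and epidermal differentiation, with 7 higher of 72. List medians were small throughout, between -0.11 for RNA transport and 0.11 for the BCL2 family, caspases and death receptors.

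**Figure D2:**
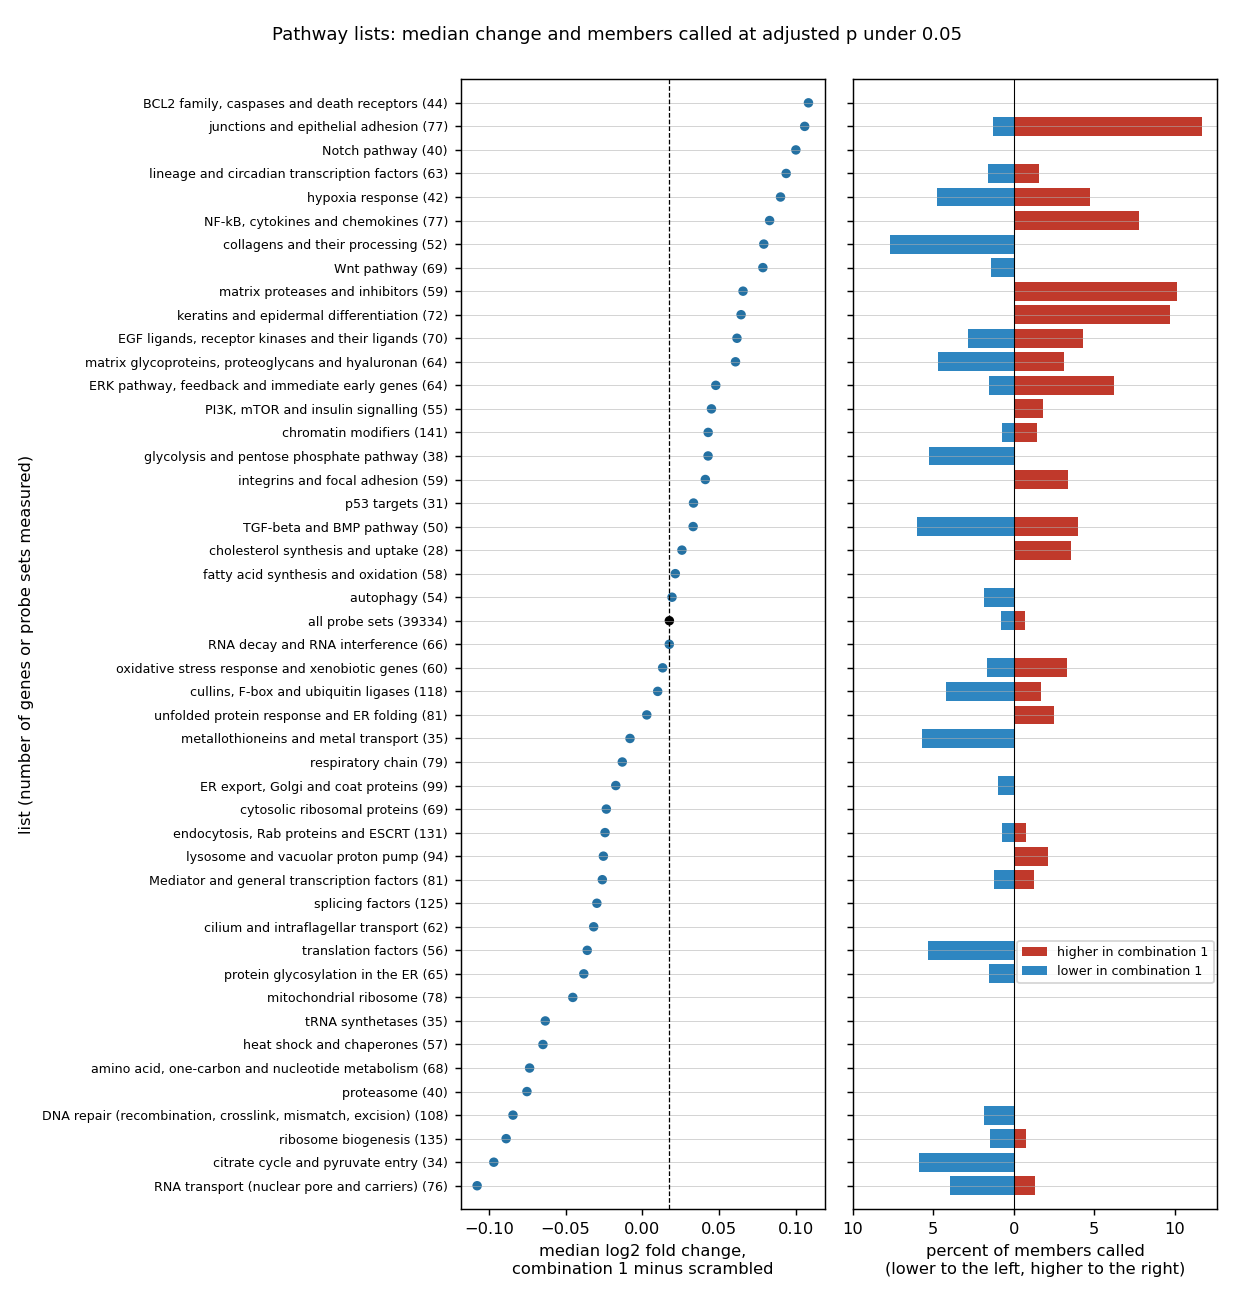
Median log2 fold change, combination 1 minus scrambled siRNA, of 46 of the 47 pathway lists and of all probe sets (left, dashed line at the median of all probe sets), and the percent of members called lower (blue, to the left) or higher (red, to the right) at an adjusted p under 0.05 (right). Calls of the junction, matrix protease, epidermal and NF-kB lists were on the higher side with the exception of 1 junction gene, and all calls of the collagen list were on the lower side.

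Genes of cell to cell contact were among the higher ones. Tight junctions seal the space between epithelial cells by claudins and occludin, adherens junctions hold cells together by cadherins and catenins, and desmosomes anchor keratin filaments. In tight junctions, CLDN4 had log2 signals of 10.85, 10.78 and 10.73 with combination 1, against 10.11, 10.04 and 10.03 with scrambled siRNA (log2 fold change 0.73, SE 0.079, adjusted p = 0.00326). CLDN7 (0.58, adjusted p = 0.0151) and OCLN (0.30, adjusted p = 0.023) were also higher. Among adherens junction genes, CDH1, which encodes E-cadherin, had 10.02, 9.99 and 9.84 with combination 1, against 9.53, 9.51 and 9.65 with scrambled siRNA (log2 fold change 0.39, SE 0.069, adjusted p = 0.0374). CTNND1, the p120 catenin that holds cadherins at the membrane (0.39, adjusted p = 0.021), CDH6, which encodes K-cadherin (0.49, adjusted p = 0.00286), NECTIN4 (0.51, adjusted p = 0.0251) and the adhesion receptor CEACAM1 (0.44, adjusted p = 0.01) rose as well.

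In desmosomes, the cadherin DSG3 had log2 signals of 7.80, 7.73 and 7.63 with combination 1, against 7.14, 7.11 and 7.04 with scrambled siRNA (log2 fold change 0.63, SE 0.069, adjusted p = 0.00369). PKP2, a plaque protein of desmosomes, moved the other way, with 10.42, 10.44 and 10.33 with combination 1, against 10.69, 10.67 and 10.79 with scrambled siRNA (log2 fold change -0.32, SE 0.058, adjusted p = 0.0374), and was the only junction gene called lower. Over all 77 measured members of the list, 58 had a positive log2 fold change and 34 lay above all scrambled arrays (15.7% of all probe sets did), with a median of 0.11. The mean log2 signal of the list was 7.501 to 7.56 on the combination 1 arrays and 7.40 to 7.44 on the scrambled arrays. CLDN4, CDH6 and DSG3 passed in every alternative, and CEACAM1, CLDN7, CTNND1, OCLN, NECTIN4, CDH1 and PKP2 lost the call in some of them, with an adjusted p of up to 0.151 for PKP2.

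Epidermal and surface epithelial genes rose without a decrease among the called members. Besides EMP1, ADGRF4, an adhesion receptor of the G protein-coupled family, had log2 signals of 7.40, 7.38 and 7.28 with combination 1, against 6.59, 6.49 and 6.39 with scrambled siRNA (log2 fold change 0.86, SE 0.077, adjusted p = 0.00136). Its relative ADGRF1 (0.49, adjusted p = 0.0215) was also higher. The epithelial ETS factors ELF3 (0.60, adjusted p = 0.0312) and EHF (0.36, adjusted p = 0.0244), the epithelial factor KLF5 (0.41, adjusted p = 0.0213) and the surface mucin MUC16 (0.54, adjusted p = 0.0348) complete the called members. No keratin gene on the list passed the test. EMP1 and ADGRF4 passed in every alternative, and ADGRF1, ELF3, EHF, KLF5 and MUC16 lost the call in some of them, with an adjusted p of up to 0.133 for ELF3.

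Called genes of the collagen and protease lists went in opposite directions, while both lists had a positive median (0.079 for collagens and 0.065 for proteases). Structural collagens and their processing enzymes gave 4 decreases and no increase among 52 measured genes, of which 40 had a positive log2 fold change. Besides COL8A1, these were COL12A1, a fibril-associated collagen (-0.45, adjusted p = 0.0173), P3H2, a prolyl hydroxylase of collagen IV (-0.57, adjusted p = 0.0211), and LOX, the lysyl oxidase that cross-links collagen (-0.55, adjusted p = 0.0424). LOX had 8.28, 8.29 and 7.91 with combination 1, against 8.79, 8.66 and 8.69 with scrambled siRNA, and the third combination 1 array lay well below the other two. Among matrix glycoproteins, the elastic fibre protein EFEMP1 had 8.83, 8.76 and 8.59 with combination 1, against 9.45, 9.37 and 9.40 with scrambled siRNA (log2 fold change -0.68, SE 0.068, adjusted p = 0.00219). MFAP5, a microfibril protein (-0.57, adjusted p = 0.0338), and the glypican GPC4 (-0.38, adjusted p = 0.039) were also lower, while LAMB3, a chain of the epithelial laminin 332, was higher (0.36, adjusted p = 0.0336) together with HAS2.

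Proteases and their inhibitors were called only on the higher side. SERPINB1, an inhibitor of neutrophil elastase, had log2 signals of 9.93, 9.92 and 9.85 with combination 1, against 9.24, 9.22 and 9.32 with scrambled siRNA (log2 fold change 0.64, SE 0.053, adjusted p = 0.000783). MMP7, the epithelial matrix metalloprotease matrilysin, had 11.13, 10.95 and 10.86 with combination 1, against 10.36, 10.21 and 10.45 with scrambled siRNA (log2 fold change 0.64, SE 0.091, adjusted p = 0.0134). MMP14, a membrane-bound collagenase (0.53, adjusted p = 0.0203), and the aggrecanase relative ADAMTS9 (0.36, adjusted p = 0.00779) rose too. The protease urokinase and its receptor moved together, with PLAUR at 0.55 (adjusted p = 0.00688) and PLAU at 0.36 (adjusted p = 0.0174). HAS2, EFEMP1, SERPINB1 and PLAUR passed in every alternative, and COL12A1, P3H2, LOX, MFAP5, GPC4, LAMB3, MMP7, MMP14, ADAMTS9 and PLAU lost the call in some of them, with an adjusted p of up to 0.162 for LOX.

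**Figure D3:**
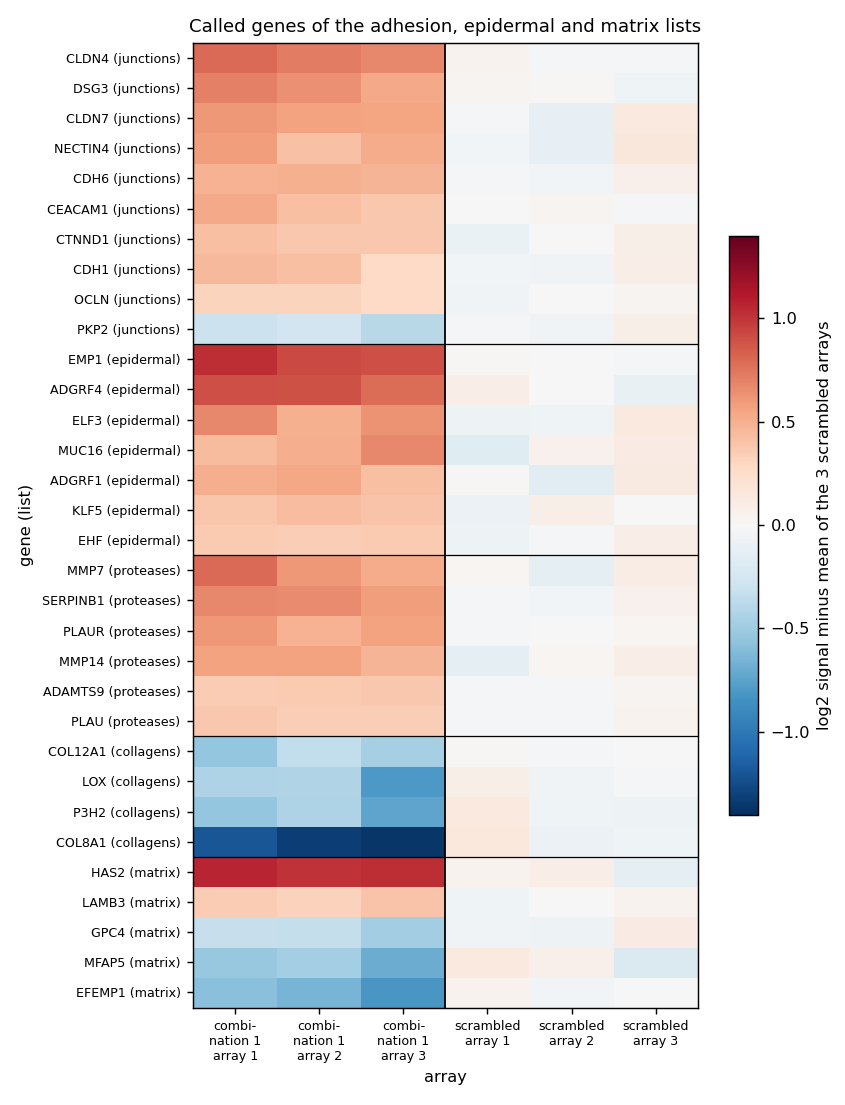
Log2 signal minus the mean of the 3 scrambled arrays (colour scale, red above and blue below that mean) for the 32 called genes of 5 lists on adhesion, epidermal differentiation, matrix proteases, collagens and other matrix, in rows, over the 3 combination 1 arrays and the 3 scrambled arrays, in columns. The junction, epidermal and protease blocks are red on all combination 1 arrays with the exception of PKP2, and the collagen block is blue.

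Single genes of actin filaments and of integrin contacts also passed. CORO1C, an actin-binding coronin, had log2 signals of 9.58, 9.62 and 9.58 with combination 1, against 10.20, 10.18 and 10.18 with scrambled siRNA (log2 fold change -0.59, SE 0.05, adjusted p = 0.000818). DIAPH3, a formin that builds actin filaments, had 7.43, 7.46 and 7.25 with combination 1, against 8.19, 8.11 and 7.95 with scrambled siRNA (log2 fold change -0.70, SE 0.094, adjusted p = 0.01). Both were lower on every combination 1 array. Of the integrin and focal adhesion list, the scaffold NEDD9 rose (0.34, adjusted p = 0.0342) beside ITGB8, out of 59 measured. CORO1C passed in every alternative, and DIAPH3 and NEDD9 lost the call in some of them, with an adjusted p of up to 0.138 for NEDD9.

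Among growth factor signalling genes, 3 ligands and 3 MAP kinase phosphatases were higher. EREG, a ligand of the EGF receptor, had log2 signals of 11.33, 11.38 and 11.30 with combination 1, against 10.78, 10.72 and 10.77 with scrambled siRNA (log2 fold change 0.58, SE 0.067, adjusted p = 0.00437). EFNB2, which encodes ephrin B2 (0.50, adjusted p = 0.00286), and PDGFA (0.35, adjusted p = 0.0107) rose, while the ligand NRG1 (-0.31, adjusted p = 0.0463) and the receptor ROR1 (-0.31, adjusted p = 0.0302) fell. The phosphatases that remove phosphate from MAP kinases were represented by DUSP10, with 10.19, 10.05 and 10.17 with combination 1, against 9.52, 9.46 and 9.53 with scrambled siRNA (log2 fold change 0.63, SE 0.06, adjusted p = 0.00175). DUSP10, like DUSP16, is known to act mainly on the kinases JNK and p38. DUSP4 (0.48, adjusted p = 0.0053), DUSP16 (0.40, adjusted p = 0.0213) and the receptor kinase inhibitor SPRY2 (0.43, adjusted p = 0.0447) were higher as well. RPS6KA5, which encodes the kinase MSK1, was the 1 decrease of this list, with 7.08, 7.15 and 6.91 with combination 1, against 7.82, 7.75 and 7.65 with scrambled siRNA (log2 fold change -0.69, SE 0.089, adjusted p = 0.00793). The ERK list thus had 4 higher and 1 lower of 64 measured, and the ligand and receptor kinase list 3 higher and 2 lower of 70. EREG, EFNB2, DUSP10 and DUSP4 passed in every alternative, and PDGFA, NRG1, ROR1, DUSP16, SPRY2 and RPS6KA5 lost the call in some of them, with an adjusted p of up to 0.18 for NRG1.

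In the TGF-beta and BMP list, 2 of 50 genes rose and 3 fell. ID1, a target of BMP signals that blocks basic helix-loop-helix factors, had log2 signals of 9.54, 9.49 and 9.57 with combination 1, against 8.84, 8.73 and 8.86 with scrambled siRNA (log2 fold change 0.72, SE 0.083, adjusted p = 0.00456). The receptor BMPR2 was also higher (0.40, adjusted p = 0.00564). The mesenchymal filament gene VIM (-0.49, adjusted p = 0.0161), the activin subunit INHBA (-0.48, adjusted p = 0.0342) and the transcription factor SNAI2, a repressor of CDH1 (-0.41, adjusted p = 0.0486), were lower. DKK1, a secreted Wnt antagonist, was the 1 called gene of 69 in the Wnt list, with 10.81, 10.86 and 10.99 with combination 1, against 11.36, 11.41 and 11.36 with scrambled siRNA (log2 fold change -0.48, SE 0.067, adjusted p = 0.0118). No Notch gene passed the test, although 36 of 40 had a positive log2 fold change (54.8% of all probe sets did). At an unadjusted p under 0.05 there were 12 Notch genes, a threshold that 15.4% of all probe sets passed. The smallest p of that list belonged to the ligand JAG1 (0.28, adjusted p = 0.0615) and the target HES1 (0.33, adjusted p = 0.0729). Of the PI3K and mTOR list, RICTOR was higher (0.44, adjusted p = 0.0189), and of the lineage and circadian factors, CRY1 was lower (-0.47, adjusted p = 0.0248). ID1 passed in every alternative, and BMPR2, VIM, INHBA, SNAI2, DKK1, RICTOR and CRY1 lost the call in some of them, with an adjusted p of up to 0.183 for SNAI2.

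The NF-kB and cytokine list had 6 higher and no lower of 77 measured genes. NF-kB is an inflammatory transcription factor that raises its own inhibitor NFKBIA. IL1B, which encodes the cytokine interleukin-1 beta, had log2 signals of 10.41, 10.53 and 10.40 with combination 1, against 9.88, 9.90 and 9.89 with scrambled siRNA (log2 fold change 0.55, SE 0.055, adjusted p = 0.00206). Its antagonist IL1RN had 8.46, 8.60 and 8.54 with combination 1, against 7.98, 8.04 and 7.96 with scrambled siRNA (log2 fold change 0.54, SE 0.057, adjusted p = 0.00304). The agonist and its antagonist were thus both higher on every combination 1 array. PTGS2, the inducible cyclooxygenase (0.51, adjusted p = 0.00715), NFKBIA (0.40, adjusted p = 0.017), the chemokine CCL2 (0.39, adjusted p = 0.0378) and the nuclear regulator NFKBIZ (0.32, adjusted p = 0.0442) rose as well. The mean log2 signal of the list was 7.55 to 7.58 on the combination 1 arrays and 7.45 to 7.47 on the scrambled arrays. IL1B, IL1RN and PTGS2 passed in every alternative, and NFKBIA, CCL2 and NFKBIZ lost the call in some of them, with an adjusted p of up to 0.162 for NFKBIZ.

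Ubiquitin ligases were lower in 5 and higher in 2 of 118 measured cases. Besides NEDD4L, SMURF2, a ligase for receptors and Smads of the TGF-beta pathway, had log2 signals of 9.94, 10.03 and 9.96 with combination 1, against 10.55, 10.54 and 10.51 with scrambled siRNA (log2 fold change -0.56, SE 0.053, adjusted p = 0.00168). Its close relative SMURF1 moved the other way (0.35, adjusted p = 0.0279). MARCHF3 (-0.57), FBXO28 (-0.52) and UBR7 (-0.44) were lower and RNF19B (0.30) was higher. EPG5, which helps autophagosomes fuse with lysosomes, was the 1 called autophagy gene (-0.53, adjusted p = 0.00333). NEDD4L, SMURF2, MARCHF3 and EPG5 passed in every alternative, and SMURF1, FBXO28, UBR7 and RNF19B lost the call in some of them, with an adjusted p of up to 0.151 for FBXO28.

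The lists of nuclear transport, ribosome biogenesis, translation, splicing and ribosomal proteins had medians below that of all probe sets. For ribosomal proteins and splicing factors the array means of the groups overlapped. The mean log2 signal of ribosomal proteins was 9.31 to 9.32 on the combination 1 arrays and 9.31 to 9.40 on the scrambled arrays. That of splicing factors was 8.63 to 8.68 and 8.67 to 8.73. Nuclear pore and carrier genes gave 3 decreases, SEH1L (-0.79), NUP43 (-0.44) and XPO4 (-0.28), and 1 increase, KPNA7, an importin alpha of early embryos (0.48), of 76 measured. Of that list, 38 genes lay below all scrambled arrays (9.97% of all probe sets did), and its mean log2 signal was 8.47 to 8.52 on the combination 1 arrays and 8.59 to 8.63 on the scrambled arrays. In ribosome biogenesis, 109 of 135 genes had a negative log2 fold change, while NOL10 (-0.49) and WDR3 (-0.43) passed as lower and UTP25 (0.28) as higher. The translation factors EIF5A2 (-0.46), EIF2B2 (-0.40) and EIF3J (-0.33) were lower, and no gene of the 69 cytosolic ribosomal proteins, 125 splicing factors, 35 tRNA synthetases or 78 mitochondrial ribosome genes was called by limma. At an unadjusted p under 0.05, these lists had 10 ribosomal protein genes, 12 splicing factors, 5 tRNA synthetases and 7 mitochondrial ribosome genes, in each list a share below the 15.4% of all probe sets. In DNA repair, the glycosylase NEIL3 (-0.51) and the Fanconi anaemia gene FANCI (-0.33) were lower of 108. Chromatin genes gave 2 increases, the remodeller CHD2 (0.34) and JARID2, a partner of Polycomb (0.31), beside the decrease of MTA2. SEH1L and MTA2 passed in every alternative, and NUP43, XPO4, KPNA7, NOL10, WDR3, UTP25, EIF5A2, EIF2B2, EIF3J, NEIL3, FANCI, CHD2 and JARID2 lost the call in some of them, with an adjusted p of up to 0.186 for XPO4.

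Few metabolic genes were called. MPC2, a subunit of the mitochondrial pyruvate carrier, had log2 signals of 6.74, 7.02 and 6.78 with combination 1, against 7.62, 7.54 and 7.41 with scrambled siRNA (log2 fold change -0.68, SE 0.091, adjusted p = 0.0106). ACO1, the cytosolic aconitase that also binds iron-responsive RNA, had 8.89, 8.86 and 8.60 with combination 1, against 9.498, 9.31 and 9.51 with scrambled siRNA (log2 fold change -0.66, SE 0.09, adjusted p = 0.011). These were the 2 calls among 34 genes of the citrate cycle and pyruvate entry. The median of that list was -0.10, and 12 of its genes lay below all scrambled arrays (9.97% of all probe sets did). The list of amino acid, one-carbon and nucleotide metabolism had no call by limma, 17 of 68 genes at an unadjusted p under 0.05 (15.4% of all probe sets) and a median of -0.073. Of these 68 genes, 28 lay below all scrambled arrays. PRPS1 (-0.29) and PFKFB2 (-0.26) were lower in the glycolysis and pentose phosphate list. UAP1, which makes UDP-N-acetylglucosamine, a donor for glycosylation and for hyaluronan, had 9.70, 9.76 and 9.66 with combination 1, against 10.45, 10.35 and 10.23 with scrambled siRNA (log2 fold change -0.64, SE 0.084, adjusted p = 0.00901). No gene of the 79 respiratory chain genes or 58 fatty acid genes was called. At an unadjusted p under 0.05 there were 7 and 7 genes in these lists, shares below the 15.4% of all probe sets. In the respiratory chain list they included ATP5MK (0.22, adjusted p = 0.101) and the complex I subunit NDUFB5 (-0.48, adjusted p = 0.114). In the fatty acid list they included the acyl-CoA synthetase ACSL4 (-0.35, adjusted p = 0.0724).

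Stress lists held calls in both directions. DDIT4, an inhibitor of mTOR that hypoxia and stress raise, had log2 signals of 9.63, 9.40 and 9.40 with combination 1, against 8.89, 8.74 and 8.78 with scrambled siRNA (log2 fold change 0.67, SE 0.087, adjusted p = 0.0083). ERN1, which encodes the endoplasmic reticulum stress sensor IRE1, was higher (0.53, adjusted p = 0.00406), as was INSIG2, a brake on cholesterol synthesis (0.39, adjusted p = 0.0314). With EPAS1 and LOX lower, the hypoxia list had 2 higher and 2 lower of 42. Of the oxidative stress and xenobiotic list, ALDH1A3, a retinoic acid synthesising enzyme (0.47, adjusted p = 0.00589), and TIPARP, a target of the aryl hydrocarbon receptor (0.36, adjusted p = 0.0407), rose and PRDX6 fell (-0.38, adjusted p = 0.033). None of 31 p53 targets and none of 44 genes of the BCL2 family, caspases and death receptors was called, with 9 and 12 at an unadjusted p under 0.05 (15.4% of all probe sets). TNFRSF10D, with the smallest p among the p53 targets, had -0.36 (adjusted p = 0.0545). DDIT4, ERN1 and ALDH1A3 passed in every alternative, and INSIG2, TIPARP, PRDX6, MPC2, ACO1, UAP1, PRPS1 and PFKFB2 lost the call in some of them, with an adjusted p of up to 0.19 for PFKFB2.

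Vesicle and transport lists held few calls. RAB27B, a GTPase of secretory granules, had log2 signals of 7.99, 7.93 and 7.88 with combination 1, against 7.21, 7.16 and 7.32 with scrambled siRNA (log2 fold change 0.70, SE 0.086, adjusted p = 0.00677). PDCD6, a calcium sensor of vesicle coats and membrane repair, had 8.67, 8.60 and 8.67 with combination 1, against 9.39, 9.46 and 9.42 with scrambled siRNA (log2 fold change -0.78, SE 0.055, adjusted p = 0.000369). These were the calls among 131 genes of endocytosis, Rab proteins and ESCRT (1.53%, against 1.47% of all probe sets). Of 379 solute carriers, 3 were higher and 4 lower (1.85%), a share near that of all probe sets. SLC15A3 (0.52) and SLC20A2 (0.32) were among the higher ones. SLC4A4 (-0.48), SLC39A10 (-0.38) and SLC25A3 (-0.36) were among the lower ones. Of 101 receptors named GPR or ADGR, 3 were lower, ADGRG6 (-0.50) and ADGRB3 (-0.47) among them, beside the 2 higher ADGRF genes. No potassium channel (88 measured), ABC transporter (42), zinc finger gene named ZNF (505) or olfactory receptor (357) was called by limma. At an unadjusted p under 0.05 there were 9 potassium channels, 8 ABC transporters, 39 ZNF genes and 28 olfactory receptors, and of these families the ABC transporters alone exceeded the share of 15.4% over all probe sets. RAB27B and PDCD6 passed in every alternative. ADGRB3 passed in every alternative that tested it, which leaves out the one without the probe sets of lowest signal. Its log2 signals were 4.66, 4.62 and 4.63 with combination 1, against 5.17, 5.13 and 5.02 with scrambled siRNA. SLC15A3, SLC20A2, SLC4A4, SLC39A10, SLC25A3 and ADGRG6 lost the call in some alternatives, with an adjusted p of up to 0.136 for SLC39A10.

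Of 18215 protein-coding genes, those of the set-aside lists included, 226 were higher and 219 lower (2.44%, against 1.47% of all probe sets). Their median log2 fold change was 0.029. Outside the set-aside lists, 132 of 17765 protein-coding genes were higher and 149 lower. This is 1.58%, against 1.06% of all probe sets outside those lists. Of 10629 long non-coding RNAs, 10 were higher and 18 lower, with a median of 0.03. Of 4872 pseudogenes, 8 were higher (0.164%, against 0.679% of all probe sets) and 54 lower (1.11%, against 0.791%). In both directions together, 1.27% of the pseudogenes were called, a share not above that of all probe sets. Their median was -0.12, and 3544 of them had a negative log2 fold change. The transcribed pseudogenes, a separate annotation class with 1 higher and 7 lower of 1015 (0.788%), had a median of 0.0083. Of the 70 calls in both pseudogene classes, 12 had means below 5.79 in both groups. The mean log2 signal over the pseudogenes was 6.08 to 6.15 on the combination 1 arrays and 6.20 to 6.28 on the scrambled arrays, with no overlap of the groups.

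**Figure D4:**
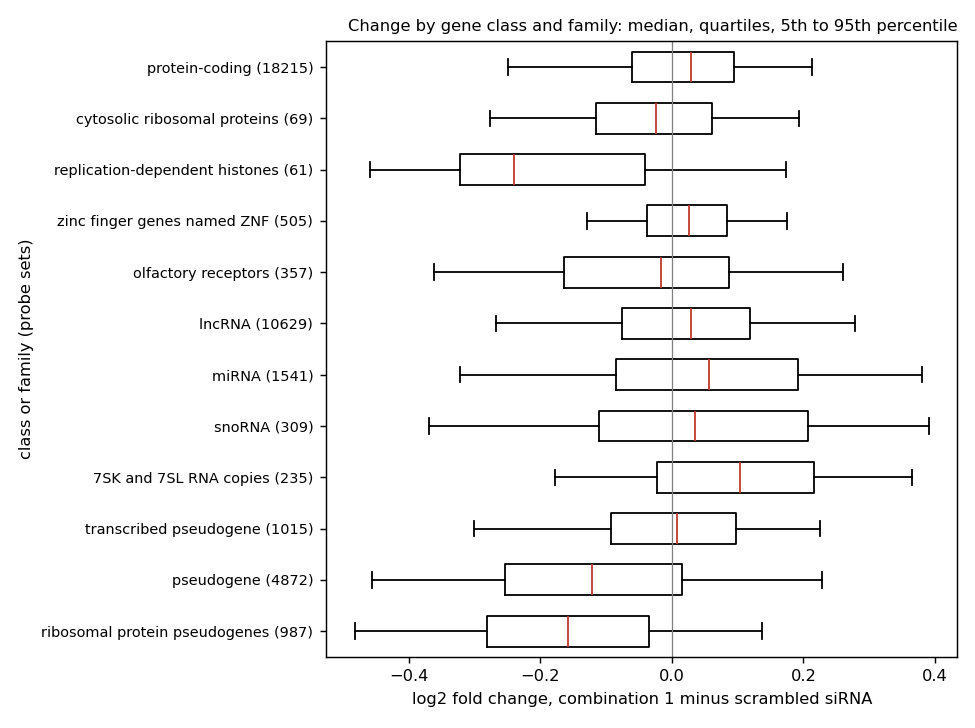
Log2 fold change, combination 1 minus scrambled siRNA (horizontal axis), by gene class and family, with the number of probe sets in brackets. Red lines are medians, boxes the quartiles and whiskers the central bulk of each class, leaving out the outermost 5% at each end, and the histones, pseudogenes and ribosomal protein pseudogenes lie furthest to the negative side.

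Copies of ribosomal protein genes were the largest pseudogene family. Of 987 such copies, 9 were lower (0.912%, against 0.791% of all probe sets) and none higher, so calls were about as frequent as elsewhere. Their median was -0.16, while the 69 ribosomal protein genes had a median of -0.024 and no call. For 46 of 58 ribosomal protein genes with measured copies, the median of the copies was below the value of the gene itself. RPL29P26 is an example, with 6.49, 6.38 and 6.41 with combination 1, against 6.93, 6.91 and 6.95 with scrambled siRNA (log2 fold change -0.50, SE 0.061, adjusted p = 0.00626). The mean log2 signal of the copies was 6.19 to 6.31 on the combination 1 arrays and 6.34 to 6.49 on the scrambled arrays. Probes of such copies can also bind the transcript of the gene they stem from and of other copies, so these probe sets are not independent and their source is uncertain. Replication-dependent histones had a median of -0.24 over 61 genes, of which 26 lay below all scrambled arrays (9.97% of all probe sets did). None was called by limma, and 27 had an unadjusted p under 0.05 (15.4% of all probe sets). The mean log2 signal of the histones was 7.67 to 7.71 on the combination 1 arrays. It was 7.98, 7.89 and 7.72 on the scrambled arrays, of which the third lay close to combination 1. The histone with the smallest p was H4C13 (-0.58, adjusted p = 0.0501).

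Of the 70 pseudogenes called in both classes, 54 have a measured protein-coding gene of the same symbol stem, which for 10 is on the set-aside cell cycle list and for 7 was itself called in the same direction. YAP1P1, a copy of YAP1, had log2 signals of 5.64, 5.68 and 5.54 with combination 1, against 7.69, 8.08 and 7.22 with scrambled siRNA (log2 fold change -2.04, SE 0.19, adjusted p = 0.00162), close to the change of YAP1, and the siRNA target and its copy cannot be told apart by these probes. DEPDC1P1 was lower (-0.91, adjusted p = 0.00582). RNF4BP, a transcribed pseudogene, had 7.84, 8.09 and 7.998 with combination 1, against 6.84, 6.92 and 6.76 with scrambled siRNA (log2 fold change 1.14, SE 0.076, adjusted p = 0.000266). A copy of the U6 small nuclear RNA, RNU6-115P, had the largest increase outside the protein-coding genes, with 9.40, 9.04 and 9.57 with combination 1, against 7.03, 7.78 and 7.92 with scrambled siRNA (log2 fold change 1.76, SE 0.24, adjusted p = 0.0114), and its scrambled arrays spread widely. It was the only call among 85 U6 copies. YAP1P1, RNF4BP, DEPDC1P1 and RPL29P26 passed in every alternative that tested them, which leaves out the one with protein-coding genes only. RNU6-115P lost the call in some alternatives, with an adjusted p of up to 0.0609.

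Among long non-coding RNAs, LINC02331 had log2 signals of 6.17, 6.49 and 6.12 with combination 1, against 7.16, 7.13 and 7.11 with scrambled siRNA (log2 fold change -0.87, SE 0.10, adjusted p = 0.00458). HIF1A-AS3 had 6.20, 6.23 and 6.30 with combination 1, against 7.004, 7.01 and 6.89 with scrambled siRNA (log2 fold change -0.73, SE 0.082, adjusted p = 0.00399). HIF1A-AS3 is annotated as antisense to HIF1A, which encodes a relative of EPAS1. KLHDC7B-DT (0.78, adjusted p = 0.0244) and LASTR (0.55, adjusted p = 0.0254) were higher. Of 2151 long intergenic RNAs, 2 were higher and 5 lower, a share of 0.325% (1.47% of all probe sets were called). TRAJ15, a joining segment of the T cell receptor alpha locus, was listed as higher (0.81, adjusted p = 0.0386). LINC02331 and HIF1A-AS3 passed in every alternative that tested them, which leaves out the one with protein-coding genes only. KLHDC7B-DT, LASTR and TRAJ15 lost the call in some alternatives, with an adjusted p of up to 0.151 for TRAJ15.

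One microRNA gene of 1541 measured was called. MIR3064 had log2 signals of 10.99, 10.98 and 11.09 with combination 1, against 10.52, 10.53 and 10.65 with scrambled siRNA (log2 fold change 0.45, SE 0.075, adjusted p = 0.0265), with no overlap of the groups. The array reports RNA of this locus and does not separate precursor from mature forms. Its mature products, from RefSeq on GRCh38.p14 chromosome 17, minus strand, are shown because a microRNA pairs with its targets by the seed, bases 2 to 8, given here in capitals.
hsa-miR-3064-5p: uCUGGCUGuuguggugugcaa
hsa-miR-3064-3p: uUGCCACAcugcaacaccuuaca
The arms have different seeds. Of 309 small nucleolar RNAs, 2 were higher (0.647%, against 0.679% of all probe sets), so increases were about as frequent as elsewhere. They were SNORA38B (0.69, adjusted p = 0.0456) and SNORD61 (0.58, adjusted p = 0.0483). MIR3064, SNORA38B and SNORD61 lost the call in some of the alternatives, with an adjusted p of up to 0.176 for SNORD61.

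Promoters of the changed genes were read for a pair of motifs. TEAD factors bind GGAATG and AP-1 factors bind TGANTCA, and both strands were searched over 250 bases before to 50 after the start of each gene in RefSeq, build GRCh38.p14. GGAATG was present in 13.3% of 105 promoters of genes called higher and in 14.5% of 117 of genes called lower, outside the set-aside lists, against 11.6% of 14809 protein-coding promoters. TGANTCA was present in 8.57% of the promoters of higher genes and 4.27% of those of lower genes, against 5.76% of all. Of the 20 genes with the largest changes, 14 had a promoter in the table, and EMP1 alone held TGANTCA more than 1 time, with 2 matches. Its promoter, chr12:13196476-13196775 on the plus strand, is shown for this reason, with the matches in capitals.
EMP1: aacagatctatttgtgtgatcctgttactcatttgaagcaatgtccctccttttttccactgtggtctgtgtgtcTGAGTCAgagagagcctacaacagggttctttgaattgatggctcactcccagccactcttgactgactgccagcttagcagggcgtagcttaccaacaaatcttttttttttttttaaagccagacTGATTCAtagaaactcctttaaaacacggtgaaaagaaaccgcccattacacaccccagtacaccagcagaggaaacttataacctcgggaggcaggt
CLTRN held 1 match to TGANTCA, and SOX4, NEDD4L and GTF2H2 held 1 match to GGAATG each. A match describes these letters only and no binding was measured.

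The siRNAs of combination 1 were also set directly against those of combination 2, which lower the same genes with other sequences. YAP1 differed by 0.03 (SE 0.072, adjusted p = 0.941) and WWTR1 by 0.04 (SE 0.053, adjusted p = 0.849) on the log2 scale, combination 1 minus combination 2. Over all probe sets, 128 of 39334 differed (0.325%), with 92 higher (0.234%) and 36 lower (0.0915%) with combination 1. Outside the set-aside lists, 7 of the 173 higher probe sets and 24 of the 241 lower ones also differed in that direction from combination 2. Both contrasts share the combination 1 arrays.

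CNIH1 had log2 signals of 8.45, 8.46 and 8.55 with combination 1, 9.34, 9.38 and 9.74 with combination 2 and 9.58, 9.48 and 9.504 with scrambled siRNA. Combination 2 overlapped the scrambled arrays and combination 1 did not, with a difference between the combinations of -1.001 (SE 0.10, adjusted p = 0.00617). MTA2 had 8.93, 8.92 and 8.97 with combination 1, 9.81, 9.87 and 9.65 with combination 2 and 9.81, 9.82 and 9.80 with scrambled siRNA, a difference of -0.84 (SE 0.065, adjusted p = 0.00163). PDCD6 had 8.67, 8.60 and 8.67 with combination 1, 9.37, 9.47 and 9.46 with combination 2 and 9.39, 9.46 and 9.42 with scrambled siRNA, a difference of -0.79 (SE 0.055, adjusted p = 0.000915). In both, the combination 2 arrays lay around the scrambled ones. MPC2 differed by -0.72 (SE 0.091, adjusted p = 0.019), RASEF by -0.75 (SE 0.099, adjusted p = 0.0242) and SEH1L by -0.59 (SE 0.092, adjusted p = 0.0485). EPAS1 was lowered by both combinations, to a smaller extent by combination 2, with 7.76, 7.66 and 7.65 with combination 1, 8.17, 8.18 and 8.10 with combination 2 and 8.52, 8.53 and 8.58 with scrambled siRNA, a difference of -0.46 (SE 0.055, adjusted p = 0.0138).

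Among the higher genes, TNFSF13B had log2 signals of 6.64, 6.74 and 6.64 with combination 1, 5.68, 5.55 and 5.86 with combination 2 and 5.47, 5.62 and 5.33 with scrambled siRNA, a difference of 0.98 (SE 0.098, adjusted p = 0.00529). LAMP3 had 8.13, 8.05 and 7.93 with combination 1, 7.19, 7.35 and 7.16 with combination 2 and 6.88, 7.005 and 6.99 with scrambled siRNA, a difference of 0.80 (SE 0.077, adjusted p = 0.00424). In both, the combination 2 arrays lay nearer to the scrambled arrays than to combination 1. CLTRN differed by 0.86 (SE 0.074, adjusted p = 0.00268), TRANK1 by 0.71 (SE 0.066, adjusted p = 0.00362) and ID1 by 0.59 (SE 0.083, adjusted p = 0.0327). ATP6V0D2, part of the vacuolar proton pump, was higher with combination 2, with 6.22, 6.35 and 6.15 with combination 1, 6.70, 6.75 and 6.88 with combination 2 and 5.797, 5.73 and 5.73 with scrambled siRNA, a difference of -0.54 (SE 0.073, adjusted p = 0.0259). Many other genes had close values in the combinations, such as EMP1, with log2 fold changes against scrambled siRNA of 0.95 with combination 1 and 0.95 with combination 2. HAS2 had 1.04 with combination 1 and 0.98 with combination 2. CLDN4 had 0.73 with combination 1 and 0.67 with combination 2. COL8A1 had -1.29 with combination 1 and -1.02 with combination 2. The adjusted p of the difference between the combinations was 0.999 for EMP1, 0.901 for HAS2, 0.87 for CLDN4 and 0.466 for COL8A1, which does not show that they were equal.

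**Figure D5:**
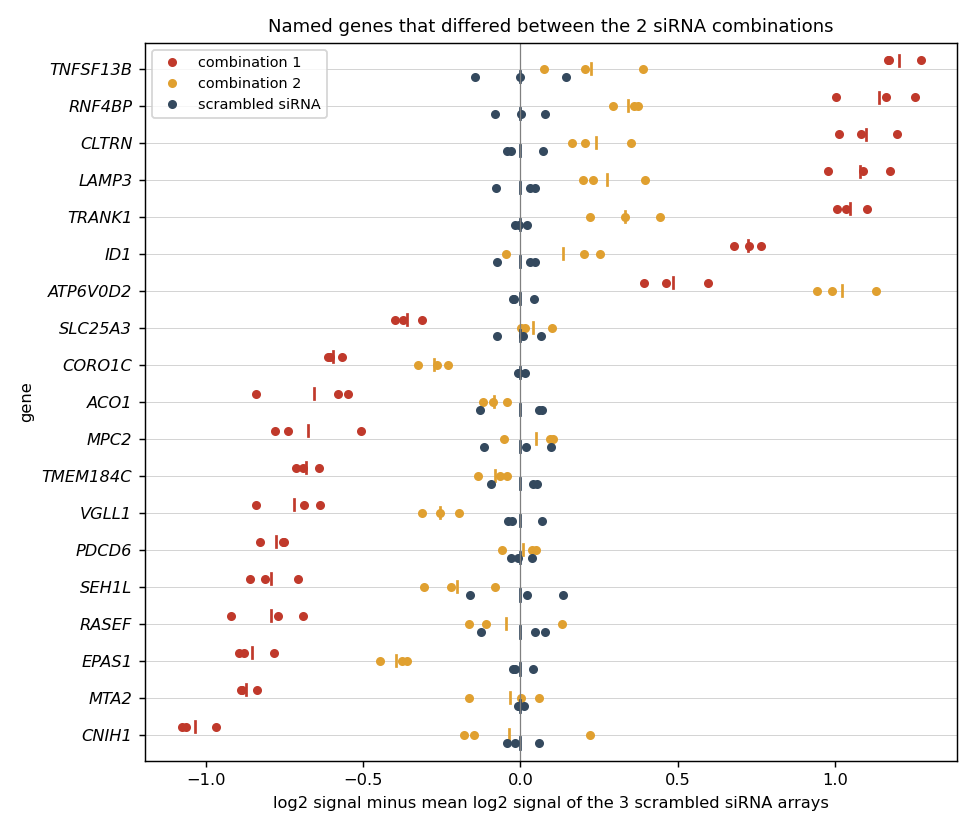
Log2 signal of each array minus the mean of the 3 scrambled arrays (horizontal axis) for the 19 named genes that differed between the combinations at an adjusted p under 0.05. Red points are combination 1, yellow points combination 2 and dark points scrambled siRNA, and short lines are group means. For CNIH1, MTA2 and PDCD6 the yellow points lie with the dark ones and the red points apart.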

How the data were processed

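RNA of HUCCT-1 cells was hybridised to Clariom D arrays. The deposited table holds 1 log2 signal for each probe set and array. Signals of scrambled array 1 are stored on a finer scale, with 29641 different numbers, whereas the remaining arrays hold 7528 apiece. Why this array differs was not tested. With all signals rounded to 2 decimals, 416 probe sets outside the set-aside lists were called, against 414 without rounding. Leaving out scrambled array 1 gave 118, and leaving out scrambled array 2 gave 128. The authors grouped the probes by a custom CDF (version 22) and processed them with RMA, which corrects background and equalises the arrays, so that signals of dim and bright genes are compressed and levels of different probe sets are not comparable. Depth does not apply to arrays, and their number limits the precision. All columns were used. A single gene symbol is given for 37201 of 39334 probe sets, of which 37154 matched RefSeq by Entrez identifier. The other 2133 were tested but not named.

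A model of 3 group means was fitted to all 9 arrays with limma 3.58.1 in R 4.3.3 (prior degrees of freedom 2.54), with Benjamini-Hochberg adjustment over all probe sets and a threshold of 0.05. No filter on low signals was used. Fold changes are log2 differences with moderated SE. Lists are described by counts and medians without a test, and 1 pathway list and 1 gene family are not reported here. The members and lists were chosen with earlier results of these data known. Genes are named by a rule, which takes the siRNA targets, the 10 largest changes each way among called protein-coding genes without overlap outside the set-aside lists, the 3 largest each way among long non-coding RNAs and among other classes, and up to 4 members with the smallest p per list or family (2 where none passed). Further called members of the pathway lists were named after their values were seen. The procedure was tested on simulated data. Alternatives covered the probe sets tested, normalization, variance model, arrays used, a replicate block, rounding, a fold change threshold and leaving out each array.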

Additional observations from a re-analysis of the deposited data

Results flagged for a closer look

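The named genes given here differed between the combinations of siRNAs by the direct test of that difference, and no explanation was tested. The values are log2 differences, combination 1 minus combination 2, and a negative value means lower with combination 1. Of genes lowered by combination 1, CNIH1 differed by -1.001 (SE 0.10, adjusted p = 0.00617), MTA2 by -0.84 (SE 0.065, adjusted p = 0.00163), PDCD6 by -0.79 (SE 0.055, adjusted p = 0.000915), RASEF by -0.75 (SE 0.099, adjusted p = 0.0242) and MPC2 by -0.72 (SE 0.091, adjusted p = 0.019). TMEM184C differed by -0.60 (SE 0.06, adjusted p = 0.00511), SEH1L by -0.59 (SE 0.092, adjusted p = 0.0485), ACO1 by -0.57 (SE 0.09, adjusted p = 0.0498) and VGLL1, which encodes another TEAD partner, by -0.47 (SE 0.069, adjusted p = 0.0407). EPAS1 differed by -0.46 (SE 0.055, adjusted p = 0.0138), the phosphate carrier gene SLC25A3 by -0.40 (SE 0.059, adjusted p = 0.0404) and CORO1C by -0.32 (SE 0.05, adjusted p = 0.0469).

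Of genes raised by combination 1, TNFSF13B differed by 0.98 (SE 0.098, adjusted p = 0.00529), CLTRN by 0.86 (SE 0.074, adjusted p = 0.00268), LAMP3 by 0.80 (SE 0.077, adjusted p = 0.00424), RNF4BP by 0.80 (SE 0.076, adjusted p = 0.00424), TRANK1 by 0.71 (SE 0.066, adjusted p = 0.00362) and ID1 by 0.59 (SE 0.083, adjusted p = 0.0327). ATP6V0D2 differed by -0.54 (SE 0.073, adjusted p = 0.0259), with the larger increase in combination 2. Single arrays within a group were not tested for outlying values, since each group holds 3 arrays.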

How the results depend on the processing

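Counts of called probe sets depended on the variance model and on how many probe sets were tested. None of 175 named genes changed direction in any alternative, but without overlap between the groups a reversal was hardly possible. Of these genes, 64 passed in every alternative that tested them, the fold change threshold aside. The count for combination 1 against scrambled siRNA was 578, and 414 outside the set-aside lists (173 higher, 241 lower), with 128 between the combinations. With protein-coding genes only, these were 1095, 845 (410 and 435) and 340. Without the 40% of probe sets with the lowest mean signal they were 1075, 859 (361 and 498) and 231. With weights per array the counts against scrambled siRNA were 986 and 781 (332 and 449). With a variance trend and robust fit, the count outside the lists was 651 (271 and 380). With only the 6 arrays compared they were 359 and 236 (101 and 135). By the ordinary linear model the lower genes outside the lists were 149 and the difference between the combinations held 77. Among probe sets that moved by 1 or more on the log2 scale the counts were 52, 14 (8 and 6) and 19. Leaving out 1 array gave 203 to 739 in all, 118 to 547 outside the lists (59 to 223 higher and 59 to 324 lower) and 48 to 133 between the combinations. Quantile normalization and median centring kept all 175 calls. The deposited values were already equalised, with array medians of 5.81, so this does not test the normalization. Of 29 lists and families with no call, 4 had one by the ordinary linear model.

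Replicate numbers are shared by the groups, but arrays of the same number did not deviate together, with correlations of 0.012, 0.048 and 0.024. With the replicate number as a block the counts were 199, 117 outside the lists (61 and 56) and 42 between the combinations.

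With 3 arrays a group, each called probe set outside the lists moved by 0.25 or more on the log2 scale, and smaller changes were not called.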

Other observations

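On no list or family and not named by the rule were 61 higher and 83 lower protein-coding genes, of which the 6 largest changes each way are given here as values, chosen after their values were seen. LIPH, a lipase that makes lysophosphatidic acid, had log2 signals of 9.20, 9.09 and 9.04 with combination 1, against 8.35, 8.29 and 8.31 with scrambled siRNA (log2 fold change 0.79, SE 0.059, adjusted p = 0.000471). GALNT5, which starts mucin-type O-glycans, had 9.5, 9.51 and 9.47 with combination 1, against 8.80, 8.73 and 8.81 with scrambled siRNA (log2 fold change 0.72, SE 0.065, adjusted p = 0.00136). TRIB1, a pseudokinase (0.68), NET1, a guanine nucleotide exchange factor (0.67), ARRDC3, an arrestin relative (0.64), and PLAAT4, known to respond to interferon and retinoids (0.61), were also higher by limma, with adjusted p between 0.000727 and 0.0245.

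Of the lower genes, PEG10, an imprinted gene of retrotransposon origin, had log2 signals of 8.10, 8.03 and 7.76 with combination 1, against 8.73, 8.74 and 8.74 with scrambled siRNA (log2 fold change -0.77, SE 0.087, adjusted p = 0.00408). VGLL1, which binds TEAD factors like YAP and TAZ, had 8.89, 8.84 and 8.69 with combination 1, against 9.59, 9.498 and 9.49 with scrambled siRNA (log2 fold change -0.72, SE 0.069, adjusted p = 0.00178). DEK, a chromatin protein (-0.77, adjusted p = 0.0223), YRDC, an enzyme of tRNA modification (-0.74, adjusted p = 0.0028), INSYN2B (-0.73, adjusted p = 0.00449) and FAM72B (-0.74, adjusted p = 0.0488) were lower as well. FAM72B has near-identical copies in the genome, so its signal cannot be assigned to 1 of them. LIPH, GALNT5, TRIB1, NET1, ARRDC3, PEG10, VGLL1, YRDC and INSYN2B passed in every alternative, and PLAAT4, DEK and FAM72B lost the call in some of them, with an adjusted p of up to 0.165 for FAM72B.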
